A study of Mus musculus with 14 samples.

Results

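The 10 genes Frmpd1, Cbr3, Upp1, Asb9, Ptgr1, Chst15, Mgst2, Krt17, Retreg1 and Cthrc1 have no settled role in male germ cells of the mouse embryo, and were chosen by the size of their rise in XY cells at embryonic day (E) 12.5 or E13.5. They were 10 of the 18194 genes measured, and 13 of the 34958 probe sets annotated to a single gene symbol. No threshold or base of the rise was stated, so the male values below are descriptions and carry no test. In E13.5 males all 10 genes read higher in both arrays than in either E13.5 female array, by 4.79-fold (Ptgr1) to 43.0-fold (Cthrc1), an order of arrays that 22.8% of all genes showed. Within that shared endpoint the genes parted by day and by sex. Chst15 stood at its E13.5 male level already at E12.5. Upp1, Asb9 and Ptgr1 read no higher in E12.5 males than at E11.5, on the mean. In females the means of Frmpd1 and Retreg1 were higher at E12.5 than at E11.5, from dim means (under the table median). Those of Cbr3 and Upp1 were higher too, with all of these arrays dim.

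Primordial germ cells are the embryonic precursors of eggs and sperm. After they settle in the genital ridge, XY germ cells enclosed in the testis cords leave the cell cycle and take up the path to prospermatogonia, while XX germ cells enter meiosis. The 10 genes belong to no shared pathway. Chst15, Mgst2, Cbr3, Ptgr1 and Upp1 encode enzymes of sulfated sugar chains, leukotrienes, carbonyl compounds, prostaglandins and uridine. Asb9 and Retreg1 encode adaptors of protein and membrane turnover, Krt17 and Frmpd1 encode proteins of the cytoskeleton and the cell cortex, and Cthrc1 encodes a secreted protein.

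RNA was measured on Affymetrix expression arrays, 14 in all, with 2 biological replicates in each of 7 groups. By age these were germ cells at E9.5, E10.5 and E11.5, all unsexed, and male and female germ cells at E12.5 and at E13.5. Embryos of E10.5 to E13.5 came from BDF1 mothers and fathers with the stella-EGFP transgene on a B6/CBA mixed background, so all of these groups carry the reporter. Their genital ridges were digested with trypsin and the cells sorted by reporter fluorescence. The sort selects for cells in which the stella regulatory sequence was active, and its purity was not tested here. The E9.5 cells were C57BL/6 and came from an earlier study, and no sort of them is described in the sources used here. Each sample was 5 ng of RNA, equal to 500 cells, amplified by PCR with 12 cycles, or with 22 cycles in the case of E9.5. Whether embryos were pooled is not given in the sources used here, so p-values measure the spread between these samples. The values were log2 signals, with array medians from 4.66 to 4.80, with precision limited by the number of arrays. A level under 4.72, the median of the whole table, is called dim, and a difference that starts from a dim level is one of signal and not of transcript number. Replicates correlated across genes with r from 0.961 to 0.981. The 7 measured germ cell markers, among them Dppa3, the gene of the stella reporter, all read above dim in both arrays of every group from E10.5 on. The samples are sorted bulk cells, in which fewer cells of a type and less RNA per cell cannot be told apart.

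Two-sided tests used limma on 12 arrays (E10.5 to E13.5), and the Benjamini-Hochberg adjustment ran over all 18194 genes. Genes with an adjusted p under 0.05 are said to have passed.

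Of the members, 8 had 14 annotated transcription starts in the RefSeq promoter table of build GRCm38.p6. The 250 bases before each start are described because CpGs are the sites at which DNA can be methylated. Methylation itself was not measured here. The 5 members with a single start are printed to show their range, 5′ to 3′, with each CpG in capitals. They lie at chr4:45184656-45184905 on the plus strand (Frmpd1), chr16:93682969-93683218 on the plus strand (Cbr3), chr4:58987079-58987328 on the minus strand (Ptgr1), chrX:164497653-164497902 on the plus strand (Asb9) and chr3:51660929-51661178 on the plus strand (Mgst2).
Frmpd1: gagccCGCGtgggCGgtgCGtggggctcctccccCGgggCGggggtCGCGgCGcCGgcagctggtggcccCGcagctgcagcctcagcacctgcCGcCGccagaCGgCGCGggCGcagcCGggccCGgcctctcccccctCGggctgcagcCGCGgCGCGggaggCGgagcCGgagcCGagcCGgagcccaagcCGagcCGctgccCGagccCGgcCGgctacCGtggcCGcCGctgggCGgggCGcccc
Cbr3: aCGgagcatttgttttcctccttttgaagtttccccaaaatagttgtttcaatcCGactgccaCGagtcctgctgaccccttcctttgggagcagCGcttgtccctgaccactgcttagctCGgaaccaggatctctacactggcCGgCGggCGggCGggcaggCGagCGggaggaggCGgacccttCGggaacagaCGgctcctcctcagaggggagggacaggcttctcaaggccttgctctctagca
Ptgr1: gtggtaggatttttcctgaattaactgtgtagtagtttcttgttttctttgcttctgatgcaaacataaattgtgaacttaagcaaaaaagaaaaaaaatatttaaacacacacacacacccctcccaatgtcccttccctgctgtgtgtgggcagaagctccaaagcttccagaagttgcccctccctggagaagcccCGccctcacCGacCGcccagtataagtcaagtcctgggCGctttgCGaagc
Asb9: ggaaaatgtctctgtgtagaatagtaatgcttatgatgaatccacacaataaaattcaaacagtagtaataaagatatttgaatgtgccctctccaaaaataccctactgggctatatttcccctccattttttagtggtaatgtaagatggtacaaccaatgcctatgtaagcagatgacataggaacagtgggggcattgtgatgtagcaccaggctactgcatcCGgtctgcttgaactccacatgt
Mgst2: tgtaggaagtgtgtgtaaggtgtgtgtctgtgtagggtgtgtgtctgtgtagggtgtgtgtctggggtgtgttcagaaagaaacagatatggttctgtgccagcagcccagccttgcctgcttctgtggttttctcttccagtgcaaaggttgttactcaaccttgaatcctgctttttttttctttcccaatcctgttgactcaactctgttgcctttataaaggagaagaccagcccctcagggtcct
The starts did not share a CpG class. Frmpd1 had 38 CpGs, more than 98.1% of the 32851 starts in the table, whose median was 6. Cbr3 had 14, Ptgr1 had 5, Asb9 had 1 and Mgst2 had 0. Among members with several starts, Upp1 had 6, 6 and 10, Chst15 had 20 and 14, and Retreg1 had 33, 4, 9 and 4. GC content ran from 39.6% at a start of Retreg1 to 84.4% at Frmpd1, against a median of 52.4%.

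Short motifs were searched on both strands of the same windows. The GC box GGGCGG, which itself holds a CpG, was at 9 of the 14 starts and in 6 of the 8 members (not in Asb9 and Mgst2), and at 32.7% of all starts. The TATA box TATAAA was in Mgst2 alone, against 12.4% of all starts. The CCAAT box CCAAT was in Asb9, Ptgr1 and Mgst2, against 33.8%. The core of the antioxidant response element, TGACNNNGC, was at 1 start of Chst15, against 10.2%, and not in Cbr3 or Ptgr1, which belong to that response in other cells. The E-box CACGTG was at 1 start of Retreg1, against 6.02%. A match is a description of these letters and not evidence of a bound site.

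**Figure D1:**
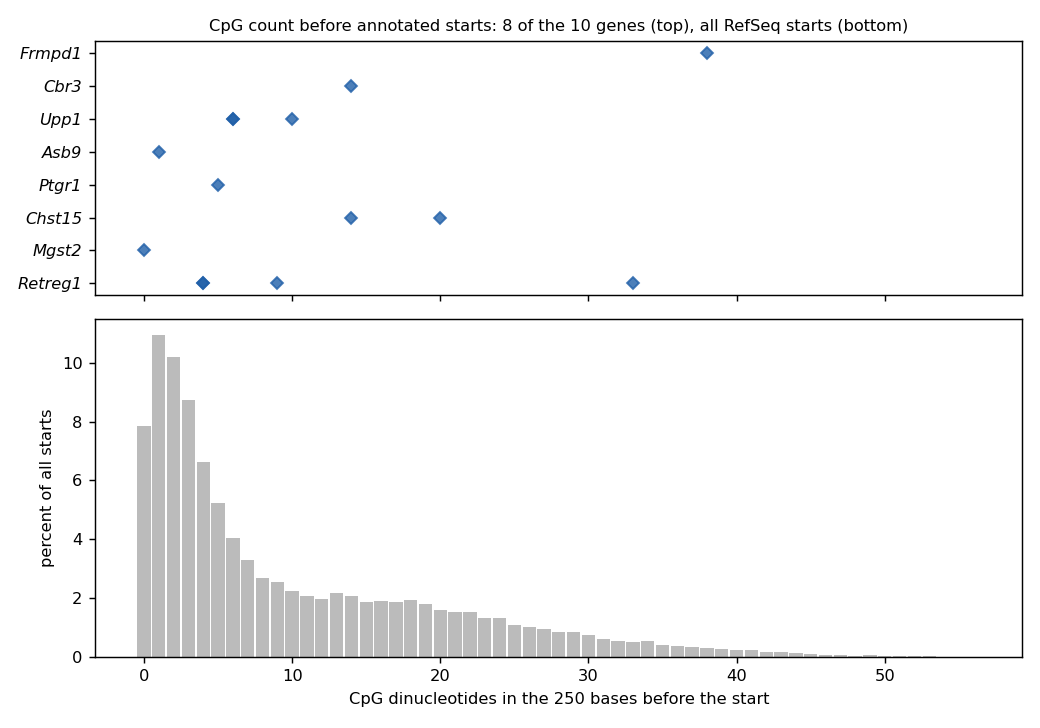
CpG dinucleotides in the 250 bases before annotated starts. Diamonds mark each start of the 8 members with an entry, and grey bars give the percent of all 32851 starts with each count. Members lie from 0 (Mgst2) to 38 (Frmpd1), on either side of the median of 6.

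Across the males the median member difference was 2.32 log2 units for E12.5 against E11.5 (range -1.80 to 4.36), where the median of all genes was 0.01, and 3.30 for E13.5 against E12.5 (range -0.15 to 5.05), where it was 0.05. At E13.5 both male arrays lay above the other 12 arrays for 9 of the 10 members, as they did for 5.05% of all genes, and Chst15 was the exception. These values chose the genes. The standard error of a difference between groups of 2 arrays was 0.35 to 0.74 for the members.

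**Figure D2:**
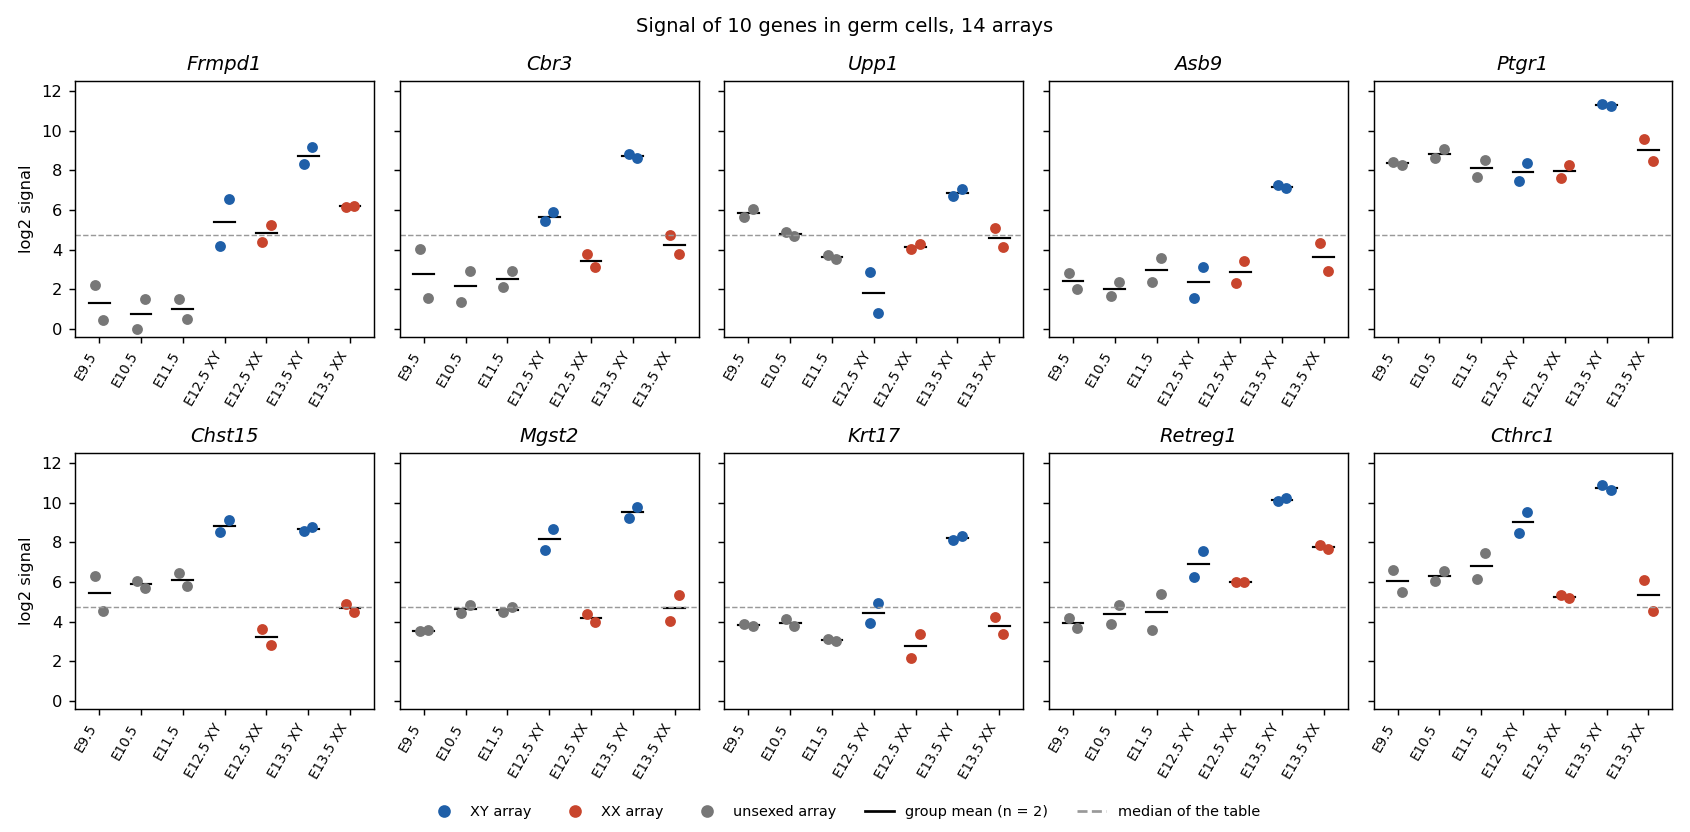
Log2 signal of the 10 genes in each of the 14 arrays, by group. Points are arrays, bars are means of 2 arrays, and the dashed line is the table median of 4.72. All 10 genes are highest in male arrays, Chst15 equally at E12.5 and E13.5.

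Chst15, Mgst2 and Cthrc1 were set apart between the sexes at E12.5. In these 3, and with the sexes reversed in Upp1, the males and the females of E12.5 lay on opposite sides of the E11.5 arrays, as for 4.69% of all genes. In Mgst2 and Upp1 the female step was smaller than its SE (-0.44, SE 0.45, and 0.54, SE 0.58), between dim means. Chst15 encodes the sulfotransferase that makes the doubly sulfated units of chondroitin sulfate E. Its probe set 1452092_at read 6.32 and 4.54 at E9.5, 6.04 and 5.71 at E10.5, 6.46 and 5.78 at E11.5, 8.51 and 9.10 in E12.5 males and 8.57 and 8.75 in E13.5 males. In females it read 3.62 and 2.84 at E12.5 and 4.89 and 4.50 at E13.5. The males stood above every unsexed array and the E12.5 females below every one, so the steps away from E11.5 ran in opposite directions, 2.69 in males and -2.89 in females. Males exceeded females by 5.58 at E12.5 (47.7-fold) and by 3.97 at E13.5 (15.6-fold), and the males of the 2 ages overlapped. With the mean of its probe sets the E12.5 difference was 2.51 and the female step -0.45.

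Mgst2 encodes a membrane glutathione transferase that can also make the cysteinyl leukotriene LTC4. Probe set 1452592_at read 3.52 and 3.58 at E9.5, 4.45 and 4.82 at E10.5, 4.49 and 4.72 at E11.5, 7.63 and 8.68 in E12.5 males and 9.24 and 9.77 in E13.5 males. Female arrays read 4.37 and 3.97 at E12.5 and 4.03 and 5.33 at E13.5. Males of both ages were above all other arrays, while females stayed in the range of the unsexed cells or just outside it. The male excess over females was 3.99 at E12.5 (15.8-fold) and 4.83 at E13.5 (28.3-fold).

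Cthrc1 encodes a secreted protein with a short collagen repeat that binds Wnt and Frizzled proteins and favours planar polarity signals. Probe set 1452968_at read 6.59 and 5.47 at E9.5, 6.06 and 6.56 at E10.5, 6.16 and 7.44 at E11.5, 8.49 and 9.55 in E12.5 males and 10.87 and 10.64 in E13.5 males. E12.5 females read 5.34 and 5.17, and E13.5 females 6.11 and 4.55. The E11.5 arrays lay between the sexes of E12.5, with steps of 2.22 to males and -1.55 to females. Males exceeded females by 3.77 at E12.5 (13.6-fold) and by 5.43 at E13.5 (43.0-fold, and 4.65 log2 units without E13.5 female replicate 2).

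Upp1, Asb9 and Ptgr1 read low or level in males until E13.5. Upp1 encodes uridine phosphorylase, which splits uridine into uracil and ribose phosphate. Its probe set 1448562_at read 5.66 and 6.05 at E9.5, 4.90 and 4.66 at E10.5, 3.71 and 3.52 at E11.5, 2.86 and 0.78 in E12.5 males and 6.69 and 7.04 in E13.5 males. In females it read 4.03 and 4.27 at E12.5 and 5.08 and 4.12 at E13.5. Signal thus stood lower at each age up to the E12.5 males, which were below the E12.5 females by a log2 difference of -2.33 (-3.37 without E12.5 male replicate 1 and -1.29 without replicate 2), and the E13.5 males were above all earlier arrays. Outside the E13.5 males the highest array was an E9.5 array at 6.05. Male minus female was 2.27 at E13.5 (4.81-fold).

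Asb9 encodes an ankyrin repeat adaptor that brings substrates such as creatine kinase B to a cullin ubiquitin ligase. Probe set 1426309_at read 2.81 and 2.01 at E9.5, 1.67 and 2.35 at E10.5, 2.35 and 3.59 at E11.5, 1.55 and 3.14 in E12.5 males and 7.24 and 7.10 in E13.5 males. Female values were 2.33 and 3.42 at E12.5 and 4.33 and 2.90 at E13.5. Every array other than those of the E13.5 males was dim, and the sexes overlapped at E12.5. The E13.5 difference between males and females was 3.56 (11.8-fold).

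Ptgr1 encodes a reductase that inactivates the leukotriene LTB4 and oxidised prostaglandins. Unlike Asb9 it was bright throughout. Its probe set 1417777_at read 8.43 and 8.28 at E9.5, 8.61 and 9.07 at E10.5, 7.66 and 8.53 at E11.5, 7.46 and 8.39 in E12.5 males and 11.33 and 11.24 in E13.5 males. Females read 7.62 and 8.28 at E12.5 and 9.58 and 8.47 at E13.5. The sexes overlapped at E12.5 (difference -0.03), and the E13.5 males were 2.26 above the females.

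Krt17 and Cbr3 stood higher in males at E12.5 than at E11.5, and much higher at E13.5. For Krt17 the step to E12.5 was 1.38, and 0.61 with the mean of its probe sets. Its E12.5 male replicate 1 was dim and within the range of the E9.5 and E10.5 arrays. Krt17 encodes a type I keratin of hair follicles and injured skin. Probe set 1423227_at read 3.88 and 3.77 at E9.5, 4.14 and 3.76 at E10.5, 3.13 and 3.03 at E11.5, 3.95 and 4.96 in E12.5 males and 8.14 and 8.31 in E13.5 males. Its female arrays read 2.16 and 3.37 at E12.5 and 4.21 and 3.38 at E13.5. Apart from replicate 2 of the E12.5 males, only the E13.5 males read above dim. The male excess was 1.69 at E12.5 and 4.43 at E13.5 (21.6-fold).

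Cbr3 encodes a carbonyl reductase that uses NADPH. Probe set 1427912_at read 4.01 and 1.55 at E9.5, 1.37 and 2.93 at E10.5, 2.10 and 2.93 at E11.5, 5.46 and 5.87 in E12.5 males and 8.83 and 8.64 in E13.5 males. In E12.5 females it read 3.77 and 3.12, and in E13.5 females 4.71 and 3.78. The male steps were near equal on each day, 3.15 and 3.07, and all unsexed and female arrays were dim. Males exceeded females by 2.22 at E12.5 and by 4.49 at E13.5 (22.5-fold).

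Frmpd1, Retreg1 and Cbr3 had higher means at E12.5 than at E11.5 in both sexes, and Upp1 in females alone. The step to E12.5 females was 3.81 for Frmpd1, 1.51 for Retreg1, 0.93 for Cbr3 and 0.54 for Upp1. For Retreg1 it was 0.62 with the mean of its probe sets. Cbr3 and Upp1 (SE 0.53 and 0.58) were dim in all of these female and E11.5 arrays. Frmpd1 was dim at E11.5 and in E12.5 female replicate 1. These steps were not tested. Frmpd1 encodes a FERM and PDZ domain protein that binds GPSM1, a partner of inhibitory G proteins, at the membrane. Probe set 1435189_at read 2.21 and 0.43 at E9.5, 0.00 and 1.49 at E10.5, 1.53 and 0.49 at E11.5, 4.20 and 6.53 in E12.5 males and 8.29 and 9.15 in E13.5 males. Females read 4.39 and 5.24 at E12.5 and 6.16 and 6.19 at E13.5. The sexes overlapped at E12.5, where the male minus female difference of 0.55 was -0.62 without E12.5 male replicate 2. By E13.5 males were 2.55 above females (5.84-fold).

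Retreg1, also known as Fam134b, encodes a receptor that feeds sheets of endoplasmic reticulum to autophagy by binding LC3 and GABARAP proteins. Probe set 1424683_at read 4.17 and 3.69 at E9.5, 3.87 and 4.86 at E10.5, 3.58 and 5.39 at E11.5, 6.26 and 7.54 in E12.5 males and 10.06 and 10.23 in E13.5 males. Females read 6.00 and 5.98 at E12.5 and 7.85 and 7.68 at E13.5. Each sex was higher at E13.5 than at E12.5 in both arrays, and males led females by 0.91 at E12.5 and by 2.38 at E13.5 (5.21-fold). Over the 12 arrays from E10.5, Frmpd1 and Retreg1 were the most alike of the 45 pairs of members (r = 0.936), and the pair least alike was Upp1 and Chst15 (r = -0.02). The median over pairs was 0.70, and all pairs share the same arrays and the choice by male values.

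Both male arrays were above both female arrays for 6 of 10 members at E12.5, against 21% of all genes, and for 10 of 10 at E13.5, against 22.8%. The median male minus female difference was 1.30 at E12.5 and 3.76 at E13.5, against -0.05 and -0.02 for all genes. These comparisons hold the male arrays that chose the genes. Replicates within a group differed too. E12.5 male replicate 2 read above replicate 1 for 9 of 10 members, Upp1 being the exception, as it did for 48.5% of all genes. E13.5 female replicate 1 read above replicate 2 for 8 of 10 members, against 55.9% of all genes.

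For 3 members a further probe set carries the same symbol, and these read dim in every array but 1 of Retreg1. Chst15 probe set 1426514_at read 1.71 and 1.22 in E13.5 males and 0.00 in both E13.5 female arrays, with 1.67 and 1.22 in E12.5 males and 3.03 and 0.96 in E12.5 females. It was dim in all 14 arrays, and the sexes of E12.5 overlapped. Krt17 probe set 1420193_at read 3.41 and 3.06 in E13.5 males and 2.68 and 3.47 in E13.5 females, all dim, and the sexes overlapped. Probe set 1427841_at, annotated to both Krt17 and Krt14 and so not counted, stayed between 5.66 and 6.28. Retreg1 probe set 1450505_a_at read 5.53 and 3.60 in E13.5 males and 4.48 and 3.78 in E13.5 females, again overlapping. With the mean of a gene's probe sets in place of the brightest, the E13.5 male minus female differences were 2.30 for Krt17, 2.72 for Chst15 and 1.41 for Retreg1, and the E12.5 difference of Retreg1 was 0.09. Which probe set follows the transcript was not tested.

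**Figure D3:**
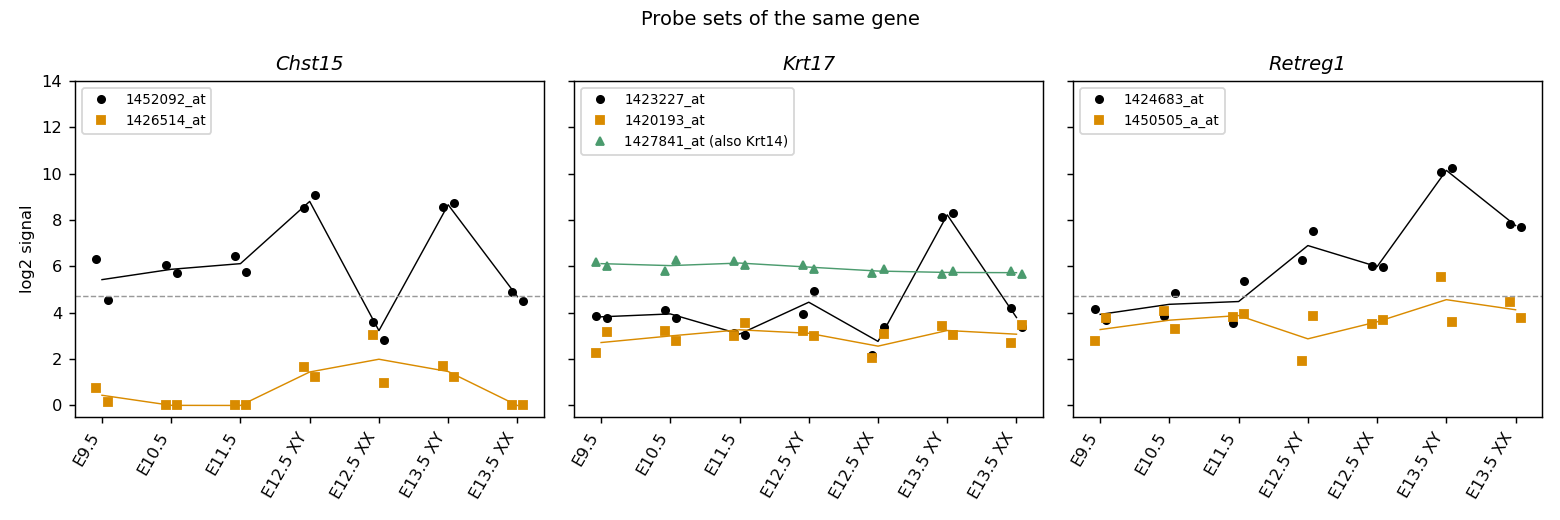
Log2 signal of each probe set of Chst15, Krt17 and Retreg1 in the 14 arrays, with lines through the group means of 2 arrays. The probe set used for each gene (black) varies with age and sex, and the second one (orange) stays within 0.00 to 3.03 (Chst15), 2.03 to 3.54 (Krt17) and 1.91 to 5.53 (Retreg1). Triangles are the probe set shared with Krt14, and the dashed line is the table median.

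The step of the females over the same day compares none of the arrays of the rule, and was tested. Its SE pools the spread of all 12 arrays, and the probe set was kept by its mean over them. The test is thus not wholly independent of the male arrays. All 10 members had a higher mean in E13.5 females than in E12.5 females, and none passed limma's test, where 1.87% of all genes did (341, 238 rising). At an unadjusted p under 0.05 there were 3 members and 2729 genes. The median difference was 0.92 (range 0.08 to 1.78), against 0.03 for all genes, and both E13.5 arrays lay above both E12.5 arrays for 6 of 10 members, against 26.8% of all genes. Chst15 was nearest to passing, with 4.89 and 4.50 in E13.5 females and 3.62 and 2.84 in E12.5 females (log2 difference 1.47, SE 0.35, adjusted p = 0.0626 by limma). The mean of its probe sets gave -0.27. Retreg1 differed by 1.78 (SE 0.57, adjusted p = 0.150 by limma), Frmpd1 by 1.36 (SE 0.74, adjusted p = 0.447) and Ptgr1 by 1.08 (SE 0.44, adjusted p = 0.276). Cthrc1 differed least, by 0.08 with a 95% interval of -1.13 to 1.28. The intervals of Frmpd1, Cbr3, Upp1, Asb9, Mgst2 and Krt17 also spanned 0 and reached above 1, so a step of 1 log2 unit in these genes was neither shown nor excluded with 2 arrays a group. The difference between the male and the female step was not tested, since the male arrays chose the genes.

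**Figure D4:**
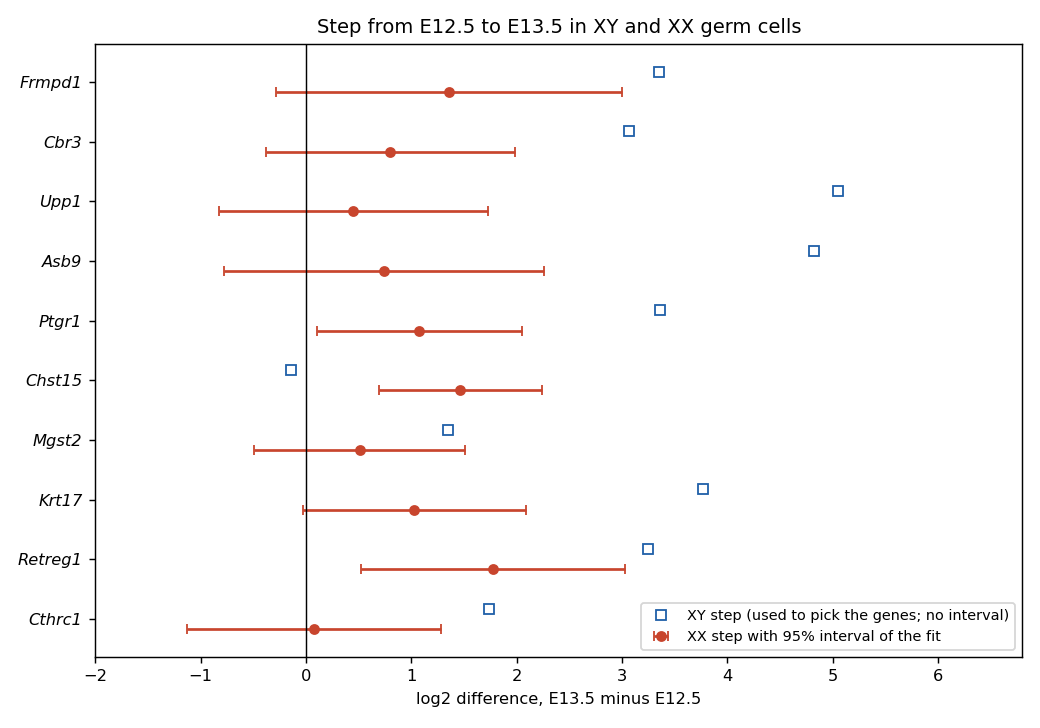
Log2 difference of E13.5 minus E12.5 in males (open squares, no interval, since they chose the genes) and in females (points with 95% intervals of the limma fit). The male step exceeds the female value for each gene except Chst15, which is -0.15 in males and 1.47 in females.

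The unsexed ages are described without a test, since E10.5 and E11.5 may both have served the rule as a base. E11.5 minus E10.5 was 0.18 at the median, from -1.17 (Upp1) to 0.96 (Asb9). The lowest after Upp1 were Krt17 (-0.87, between dim means) and Ptgr1 (-0.75). E10.5 minus E9.5 was 0.20 at the median, from -1.08 (Upp1) to 1.09 (Mgst2), where all genes had a median of -0.07 and 1.06% of them passed in a fit of all 14 arrays (193, 130 rising). Mgst2 read 4.45 and 4.82 at E10.5 against 3.52 and 3.58 at E9.5, and Upp1 was the member that read lower at each of these ages. Age cannot be told apart here from strain, study of origin, RNA kit and PCR cycles. Blood markers summed to log2 levels of 53.90 and 53.25 over 9 markers at E10.5 against 68.00 and 58.92 at E9.5, and their part was not tested.

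Some markers of gonadal somatic cells differed between the sexes as well. Between the sexes 2.39% of all genes passed at E12.5 and 10.2% at E13.5, in either direction. Of 11 measured Sertoli cell markers, 2 passed as higher in males at E12.5 and 3 at E13.5, and none passed as lower. Their summed log2 level was 77.45 and 75.00 in E13.5 males against 63.73 and 60.57 in E13.5 females, and 69.31 and 73.01 in E12.5 males against 65.13 and 65.35 in E12.5 females. Over the unsexed arrays it ran from 58.95 to 66.01. Dmrt1, the brightest of the list from E11.5 on, read 11.04 and 10.67 in E13.5 males and 11.38 and 10.89 in E13.5 females. Clu read 10.08 and 10.06 at E9.5. The sum therefore does not measure Sertoli cells alone. Cst9, a cystatin of Sertoli cells, read 9.11 and 8.44 in E13.5 males and 3.52 and 1.15 in E13.5 females (log2 difference 6.44, SE 0.74, adjusted p = 0.00041 by limma). Ptgds, a prostaglandin D synthase, read 7.54 and 7.12 in E13.5 males and 4.08 and 3.76 in E13.5 females (3.41, SE 0.41, adjusted p = 0.000535). Both kept these calls whichever of the 4 arrays was left out. At E12.5 both male arrays were above both female arrays for 4 of the 11, against 21% of all genes. They were below for 3, and for 4 they overlapped. At E13.5 both male arrays were above for 6 (Dhh, Cst9, Ptgds, Gata4, Wt1 and Clu), against 22.8% of all genes. They were below for 1, and for 4 they overlapped. Of the defining markers, Amh lay between 5.67 and 6.24 in all 14 arrays, and Sox9 was dim in all, from 2.05 to 4.23. No Sertoli marker was at 0 in any array.

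Of 11 Leydig and interstitial markers, 2 passed as higher in E13.5 males than females, where 10.2% of all genes passed in either direction. Both male arrays were above both female arrays for 4 of the 11, against 22.8% of all genes, and below for 1. For 6 they overlapped, among them Cyp11a1, Star and Nr5a1. The summed level of the list was 52.68 and 55.39 in E13.5 males against 48.35 and 46.82 in E13.5 females, and 45.39 and 46.81 in E12.5 males against 47.00 and 48.31 in E12.5 females. Cyp17a1, an enzyme of androgen synthesis, read 6.19 and 5.67 in E13.5 males and 3.33 and 3.25 in E13.5 females (2.64, SE 0.32, adjusted p = 0.000568 by limma). Of 8 pregranulosa markers 3 passed as lower in E13.5 males, among them Irx3 with 2.11 and 3.42 in males against 6.48 and 7.26 in females. Both male arrays were below both female arrays for 3 of the 8 and above for 2, and for 3 they overlapped. Rspo1, an activator of Wnt signalling on the same list, rose in both male steps (2.93 at E12.5, adjusted p = 0.0147, and 2.75 at E13.5, adjusted p = 0.0134, by limma). It read 8.83 and 9.06 in E13.5 males against 7.86 and 7.76 in E13.5 females. Each call of a male step was lost without any of 3 arrays (adjusted p up to 0.138 and 0.114). The summed level of the list was 42.28 and 44.09 in E13.5 males against 47.75 and 46.68 in E13.5 females. The 11 epithelial, 10 endothelial and 9 blood markers had summed levels of 72.34 and 72.33, 60.12 and 58.49, and 32.75 and 40.15 in E13.5 males. In E13.5 females these were 69.47 and 70.41, 57.70 and 56.90, and 34.95 and 41.27. Epcam, the brightest epithelial marker in both sexes, read 12.18 and 11.85 in E13.5 males and 11.66 and 11.33 in E13.5 females. The part of germ cells in these sums was not tested. The blood marker Hba-a1 was at 0 in at least 1 array of every group. Germ cell markers summed to 85.99 and 84.97 in E13.5 males and to 85.29 and 84.48 in E13.5 females. The part of somatic cells in the members' signal was not tested.

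**Figure D5:**
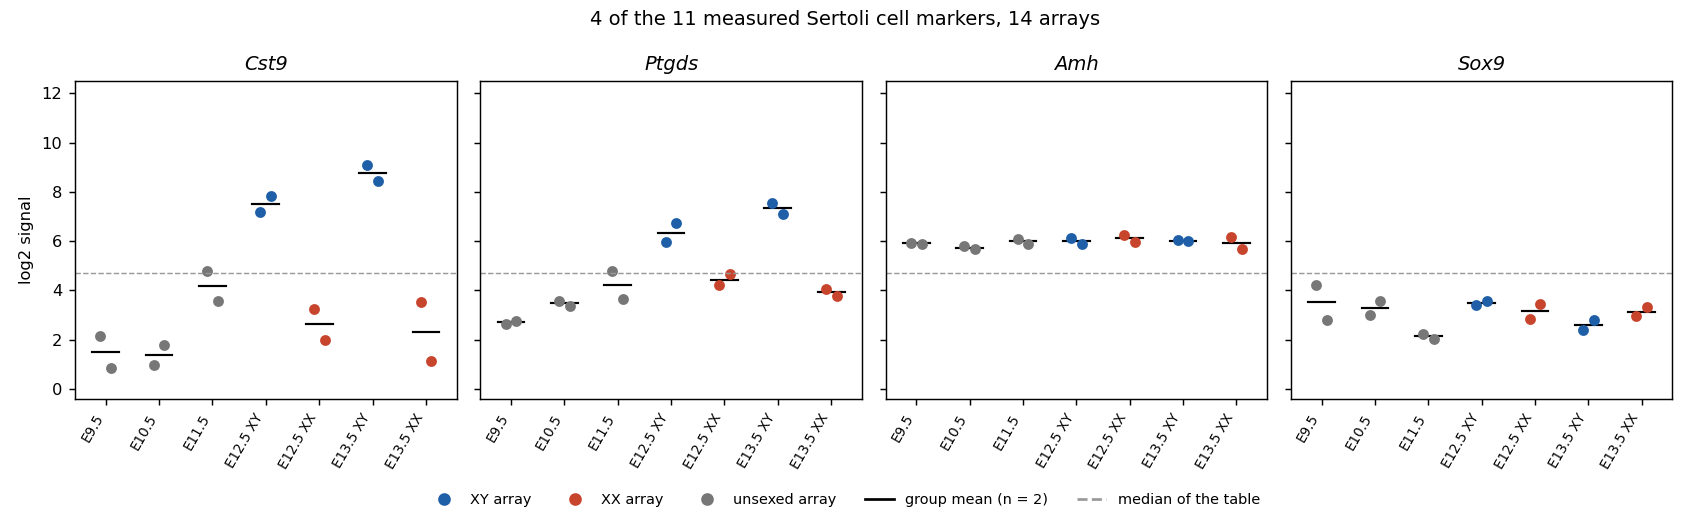
Log2 signal of 4 of the 11 measured Sertoli cell markers in the 14 arrays, by group. Cst9 and Ptgds, picked as those that passed as higher in males at both ages, are high in male arrays, while Amh stays between 5.67 and 6.24 and Sox9 between 2.05 and 4.23.

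Genes of the same enzyme families and pathways were set beside the members, with tests over all genes. In males 1.01% of all genes passed for E12.5 against E11.5 (60 rising, 123 falling) and 2.09% for E13.5 against E12.5 (248 rising, 133 falling, or 65.1% rising, against 54.0% with quantile normalization). Males and females differed for 2.39% of genes at E12.5 (121 higher and 314 lower in males, or 27.8% higher, against 38.1% with quantile normalization) and for 10.2% at E13.5 (763 higher, 1091 lower). The 10 lists around the members held 165 distinct genes, of which 1.82%, 1.21%, 3.64% and 12.7% passed in these 4 comparisons, in the order given.

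Of 12 further reductases of carbonyl compounds and prostaglandins none passed in either male step, with 2 at an unadjusted p under 0.05 in each by limma. At E13.5 Cbr1, the close relative of Cbr3, was higher in males, with 10.30 and 10.48 against 9.24 and 9.61 in females (0.97, SE 0.21, adjusted p = 0.0138 by limma), and the quinone reductase Nqo2 was lower (-0.94, adjusted p = 0.0423). Cbr1 kept its call only without E13.5 female replicate 2, and its adjusted p ran from 0.0249 to 0.110 with 1 array left out. Of 20 enzymes of leukotrienes and glutathione, Gstm5 rose in males (1.18, adjusted p = 0.0101) and in females (1.10, adjusted p = 0.0159) over the day to E13.5, and Gstp1 was lower in males at both ages (-0.95 at E12.5 and -0.94 at E13.5). Among 16 genes of the NRF2 response, the oxidative stress pathway to which Cbr3 and Ptgr1 belong in other cells, none passed in either male step (1 at an unadjusted p under 0.05 at E12.5 and 4 at E13.5, by limma). Maff and Tkt were lower in E13.5 males than in females (-1.15 and -0.96), and the median of the list was -0.23, against -0.02 for all genes. With 1 array left out, the adjusted p rose to as much as 0.127 for Gstm5 in males, 0.263 for Gstp1 at E12.5 and 0.273 for Maff.

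Of 16 pyrimidine enzymes other than Upp1, Dpys, which breaks down dihydrouracil, fell in males at E12.5 (6.05 and 6.01 in E12.5 males against 7.70 and 8.30 at E11.5, log2 difference -1.97, adjusted p = 0.0147 by limma). The call was lost without E11.5 replicate 2 or either E12.5 male array (adjusted p up to 0.153), and the mean of its probe sets gave -1.05 (adjusted p = 0.152). At E13.5 Uck2, a uridine kinase, was higher in males by 0.58, and Dpys (-1.61), Uckl1 (-1.60) and Tk1 (-0.68) were lower. Uckl1, a relative of the uridine kinases, passed with each of the 4 arrays left out in turn (adjusted p from 0.00441 to 0.0302). Uck2 lost its call without any 1 of the 4 arrays, and its difference was 0.10 with the mean of its probe sets. Of 22 genes of the Asb family and its cullin complex, Asb5 alone passed, lower in E13.5 males (1.08 and 2.62) than in E13.5 females (4.14 and 5.07), and not without E13.5 male replicate 1 or E13.5 female replicate 2 (adjusted p up to 0.0893). Of 21 chondroitin sulfate enzymes none was called higher in males at either age. Papss1, which makes the sulfate donor, was lower in E13.5 males (9.11 and 8.89, against 10.77 and 10.23 in females, adjusted p = 0.00736), as were Chpf (-1.11), Dsel (-1.05) and Chst7 (-1.01), and the median of the list was -0.38. Papss1 lost its call without E13.5 female replicate 1 or E13.5 male replicate 2 (adjusted p up to 0.0753), and the others without 3 or 4 of the arrays in turn.

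Keratins split. Of 15 measured, 3 of which also stand among the epithelial markers, Krt7 was higher and Krt18 lower in males at both ages. Krt18 read 7.64 and 7.73 in E13.5 males and 9.57 and 9.77 in E13.5 females (-1.99, SE 0.25, adjusted p = 0.000618 by limma), and Krt7 read 5.77 and 6.14 in males and 4.34 and 4.68 in females (1.45, SE 0.25, adjusted p = 0.00422). Krt7 fell over the day to E13.5 in both sexes, the opposite of the male step of Krt17, by 1.22 in males and 1.30 in females. The E13.5 sex differences of both keratins held whichever array was left out, and the falls of Krt7 did not (adjusted p up to 0.294 in males and 0.244 in females). Of 15 receptors and partners of autophagy of the endoplasmic reticulum, Gabarapl1 read 8.34 and 8.49 in E13.5 males against 6.81 and 7.33 in E13.5 females (1.35, adjusted p = 0.0261 by limma). Gabarapl2 was higher by 0.85 (adjusted p = 0.0144) and Rtn3 lower (-0.78, adjusted p = 0.0261). The calls of both GABARAP genes were lost without any 1 of the 4 arrays (adjusted p up to 0.184 and 0.103). Of 12 genes around FERM, PDZ and GPSM proteins none passed in any of the 4 comparisons or in the female step, with at most 1 in each at an unadjusted p under 0.05 by limma. Of 19 planar polarity genes, Ror2, a Wnt receptor to which Cthrc1 binds in other cells, was lower in E13.5 males (7.06 and 7.09) than in females (9.09 and 9.49) by a difference of -2.22 (SE 0.23, adjusted p = 0.000246), a call held whichever array was left out. Celsr1 was lower in males as well at both ages, and lost these calls without 3 or 4 of the arrays in turn.

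Genes known from XY germ cells were counted in the same way. Of 11 measured, 4 passed as higher in males at E12.5 and 5 at E13.5, where 2.39% and 10.2% of all genes passed in either direction. Lefty1, an inhibitor of Nodal, read 12.70 and 12.53 in E13.5 males and 8.22 and 6.61 in E13.5 females (5.20, SE 0.39, adjusted p = 3.81e-05 by limma), and the Nodal co-receptor Tdgf1 read 8.22 and 9.06 in males and 3.57 and 3.61 in females (5.05, SE 0.56, adjusted p = 0.000344). In the male steps, Piwil4 of the piRNA pathway rose at E12.5 (2.13, adjusted p = 0.0079 by limma, a call lost without E12.5 male replicate 2). The cell cycle inhibitor Cdkn2b rose at E13.5 (1.49, adjusted p = 0.0349 by limma, a call lost without any of 3 arrays). Females read higher too, for Piwil4 with 5.99 and 6.41 at E12.5 against 4.27 and 4.95 at E11.5. For Cdkn2b they read 6.72 and 6.64 at E13.5 against 5.67 and 6.04 at E12.5. Neither gene was called between the sexes at either age.

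The gene whose profile over the 12 arrays from E10.5 was most like each member was taken from 1547 genes with an SD of at least 1. These were Lefty1 for Chst15 (r = 0.962), Ctsw for Mgst2 (0.969), Pdlim3 for Cthrc1 (0.978), Trim46 for Upp1 (0.837), Prss28 for Asb9 (0.951), Fmn1 for Ptgr1 (0.928), Synj2 for Krt17 (0.947), Tgif1 for Cbr3 (0.986), Man2a1 for Frmpd1 (0.978) and Bnc2 for Retreg1 (0.970). Lefty1 read 11.86 and 11.94 in E12.5 males against 6.45 and 6.49 in E12.5 females, a split that Chst15 shares. Tgif1, a repressor in TGF-beta signalling, read 11.65 and 11.16 in E13.5 males and 9.40 and 10.12 in E12.5 males, against 9.57 and 9.03 in E13.5 females and 8.84 and 8.87 in E12.5 females. The genes nearest to the mean profile of the members were Irf2bpl (r = 0.971), Tgif1 (0.969), Synj2 (0.968), Lat (0.965) and Ccl25 (0.962). These correlations share the 12 arrays and the large male rise, and are descriptions.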

How the data were processed

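Each value is the log2 signal of a probe set, deposited by the authors and, per the series' design text, normalized over all 14 arrays together, the E9.5 arrays of the earlier study included. That the scale is log2 follows from the values, 0 to 14.04. The sources used here give no software, background correction, summarization or genome build. Of 45101 probe sets, 34958 had 1 gene symbol in the platform annotation, 932 several and 9211 none, and 34754 were matched to RefSeq through their Entrez identifiers. For each of the 18194 genes the probe set of highest mean was kept, with no filter on low values, so all 10 members were tested. On the mean, 7 of them lay below the median gene. Between 1.54% and 1.83% of an array's values were 0, and no detection calls were used.

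Groups came from the labels. limma 3.58.1 in R 4.3.3 fitted 1 mean per group with an intensity trend, two-sided, over the 12 arrays of E10.5 to E13.5, and over all 14 arrays for E10.5 against E9.5. The fitting script was tested on simulated data. The rule used the male arrays and possibly those of E10.5 and E11.5 as a base, so members were tested only in E13.5 against E12.5 females. A planned test of the members in E10.5 against E9.5 is not used, and its differences are described.

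The members and the 18 gene lists (263 entries, 246 measured) were chosen with earlier results of these data known. Named genes are all members, up to 4 passing genes of largest change per list and comparison (not all of them are given), and the gene of highest correlation to each member and the 5 to their mean profile. For Hba-a1, Amh, Sox9, Dmrt1, Epcam, Dhh, Gata4, Wt1, Cyp11a1, Star and Nr5a1, marker genes outside this rule, and for Chsy1, levels were seen before they were named. Other settings were quantile normalization, median centring, a filter at the median gene, the mean of a gene's probe sets, no trend, a replicate block and leaving out each array.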

Additional observations from a re-analysis of the deposited data

Results flagged for a closer look

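For 4 of the 10 genes every E12.5 male array moved one way from the E11.5 arrays and every E12.5 female array the other way, as for 4.69% of all genes. The male minus female difference of these steps was 5.58 for Chst15 (2.69 in males and -2.89 in females), 3.99 for Mgst2 (3.55 and -0.44), 3.77 for Cthrc1 (2.22 and -1.55) and -2.33 for Upp1 (-1.80 and 0.54). The female steps of Mgst2 and Upp1 were smaller than their SE (0.45 and 0.58) and lay between dim means. These differences were not tested, since the male arrays chose the genes, and both steps share the E11.5 arrays.

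Genes of the lists were searched for such movement only if they had passed in some comparison. From E11.5 to E12.5 it was seen for Lefty2 (6.53), Lefty1 (5.43), Tdgf1 (3.88), Nodal (1.61), Krt7 (1.36) and Uckl1 (-0.74). It was seen too for the Sertoli marker Cst9 (4.90), the epithelial marker Upk3b (1.68) and the pregranulosa marker Irx3 (-2.02). From E12.5 to E13.5 it was seen for Asb5 (-2.97), Chpf (-1.08), the Sertoli markers Ptgds (1.50) and Clu (2.39), and Cdh1 (0.60). The steroid enzymes Cyp17a1 (2.46) and Hsd3b1 (2.25) showed it as well, as did 5.46% of all genes over this day. None was tested as a difference of steps. List genes that never passed could move this way too. Chsy1 read 9.75 and 9.62 at E11.5, with E12.5 males below (9.29 and 9.15) and E12.5 females above (10.1 and 9.8). The names given are therefore not a share to compare with that of all genes. Such a difference can rest mostly on a single sex. The Cyp17a1 step was 2.37 in males and -0.09 in females, whose arrays were all dim. For Lefty2 the step to E12.5 was 0.93 in males and -5.60 in females. With 2 arrays per group no array could be tested as an outlier.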

How the results depend on the processing

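No member passed in E13.5 against E12.5 females under any setting tried. The filter at the median gene removed 7 of the 10 members, which could therefore not pass under it. The counts over all genes moved more. Leaving out 1 array gave 2 to 101 genes for E12.5 males against E11.5 (183 with all arrays), 16 to 167 for E13.5 against E12.5 males (381), 93 to 147 for males against females at E12.5 (435), 912 to 1046 at E13.5 (1854), 0 to 89 for E13.5 against E12.5 females (341) and 51 to 1927 for E10.5 against E9.5 (193). The count of 0, by limma without E12.5 female replicate 2, stood beside 1722 genes at an unadjusted p under 0.05, and 1927 came without E10.5 replicate 1. Without the intensity trend the same comparisons gave 79, 211, 279, 1509, 165 and 120 genes. With the mean of all probe sets E12.5 males against E11.5 gave 110 genes and E13.5 against E12.5 females 225. The other settings kept these counts within 1.5 times.

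The female step of Chst15 turned to -0.27 with the mean of its probe sets. With 1 array left out it ran from -0.03 to 0.93 for Upp1, -0.14 to 1.16 for Mgst2 and -0.71 to 0.86 for Cthrc1. For E10.5 minus E9.5 the ranges that crossed or reached 0 were -1.47 to 0.32 (Frmpd1), -1.86 to 0.60 (Cbr3), -0.80 to 0.00 (Asb9), -0.45 to 1.34 (Chst15), -0.065 to 0.32 (Krt17), -0.06 to 0.93 (Retreg1) and -0.28 to 0.84 (Cthrc1). Of the described member differences, 34 of 240 moved by more than the spread between replicates with an array left out, and 14 of 318 under the other settings. Of the calls of list genes, 164 of 260 were lost with an array left out and 52 of 362 otherwise. The causes were not tested.

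The replicate numbers did not pair the samples, with correlations of same-numbered deviations from -0.22 to 0.28 over 21 pairs of groups. With the replicate number as a block 150, 336, 387, 1892, 309 and 171 genes passed in the 6 comparisons, and no member in the female step.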
